A study of Homo sapiens with 12 samples.

Results

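The 10 genes described here are the classical cadherins CDH1, CDH2 and CDH3, the mesenchymal marker genes VIM and FN1, and the transcription factor genes SNAI1, SNAI2, TWIST1, ZEB1 and ZEB2. They were taken by gene name from a table of 58735 genes, and each was followed in all 12 libraries.

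Classical cadherins are calcium-dependent adhesion proteins of the cell surface that bind the same cadherin on a neighbouring cell and are tied to actin through catenins. In epithelial-mesenchymal transition (EMT), cells lower E-cadherin and raise N-cadherin, the intermediate filament vimentin and the matrix protein fibronectin. The SNAI and ZEB zinc finger proteins repress CDH1 by binding E-box sequences, and the bHLH factor TWIST1 is placed upstream in the same programme. In breast epithelium E-cadherin is made by luminal and basal cells and P-cadherin mainly by basal cells.

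RNA was sequenced from a pair of breast lines, SK-BR-3 and MCF-10A, given diallyl trisulfide (DATS), a sulfur compound of garlic, or its solvent dimethyl sulfoxide (DMSO). The 4 groups of 3 libraries were SK-BR-3 with 20 µM DATS, SK-BR-3 with 0.07% DMSO, MCF-10A with 20 µM DATS and MCF-10A with 0.07% DMSO, each kept in its agent for 16 h. SK-BR-3 is an established breast cancer line with an amplified ERBB2 gene, and MCF-10A is an immortalised, non-tumorigenic breast epithelial line. The labels give 3 independent preparations of each sample type, with no statement that a number stands for a shared day. Below, a numbered preparation of a line means its same-numbered DATS and DMSO libraries, a pairing inferred from the data and not documented. Each line is 1 model and not a tissue, and cells of both were detached with trypsin before RNA was extracted, a step shared by all groups. In bulk RNA, fewer cells of a type and less RNA per cell cannot be told apart.

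Libraries held 15295046 to 18407213 reads in genes. Summed over 7 luminal keratins and factors, SK-BR-3 had 4.6e+03 to 6.05e+03 FPKM (fragments scaled to exon length and library size) with DATS and 3.62e+03 to 5.65e+03 FPKM with DMSO, and MCF-10A 184 to 214 FPKM with DATS and 110 to 129 FPKM with DMSO. Over 7 basal genes SK-BR-3 had 92.6 to 128 FPKM with DATS and 51.5 to 67.2 FPKM with DMSO, and MCF-10A 4.47e+03 to 5.32e+03 FPKM with DATS and 4.23e+03 to 5.26e+03 FPKM with DMSO. In SK-BR-3 the 7 leukocyte markers summed to 22.9 to 46.7 FPKM with DATS and 11.7 to 31.7 FPKM with DMSO, nearly all of it CSF1R, while PTPRC, which encodes CD45, reached at most 0.0202 FPKM there. In MCF-10A they summed to 7.36 to 9.09 FPKM with DATS and 5.65 to 6.53 FPKM with DMSO, mostly CD14 and CSF1R. The 7 fibroblast markers summed to at most 12.9 FPKM in any library, a value of MCF-10A DMSO. In SK-BR-3 they summed to 1.67 to 2.25 FPKM with DATS and 1.61 to 2.44 FPKM with DMSO, most of it COL1A1.

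Sequence of the start regions bears on this set because its repressors bind the E-box CAGGTG. RefSeq start regions on GRCh38.p14, 250 bases before to 50 after a start, were matched for CDH2, VIM, FN1, ZEB1 and ZEB2. CDH1, CDH3, SNAI1, SNAI2 and TWIST1 were not matched. The letters CAGGTG were searched on both strands (CACCTG is the same site on the other strand) and are shown in capitals. They were found in 7231 of 35116 start regions, or 20.6%. Shown are a start of each of 3 genes, the cadherin and the filament gene whose levels are followed below and the repressor gene with the most matches: CDH2 at chr18:28177081-28177380 (minus strand), VIM at chr10:17227991-17228290 (plus strand) and ZEB1 at chr10:31318966-31319265 (plus strand).
CDH2: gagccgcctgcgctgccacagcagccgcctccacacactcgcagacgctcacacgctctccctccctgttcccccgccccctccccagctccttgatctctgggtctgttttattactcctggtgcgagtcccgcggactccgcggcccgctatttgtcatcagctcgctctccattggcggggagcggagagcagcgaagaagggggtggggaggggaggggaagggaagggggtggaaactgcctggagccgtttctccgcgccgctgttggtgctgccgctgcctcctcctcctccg
VIM: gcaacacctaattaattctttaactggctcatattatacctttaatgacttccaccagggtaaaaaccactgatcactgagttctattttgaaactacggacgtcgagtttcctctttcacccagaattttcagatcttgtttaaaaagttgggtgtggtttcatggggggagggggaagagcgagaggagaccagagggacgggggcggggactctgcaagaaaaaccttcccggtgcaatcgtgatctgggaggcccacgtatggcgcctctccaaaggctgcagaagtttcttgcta
ZEB1: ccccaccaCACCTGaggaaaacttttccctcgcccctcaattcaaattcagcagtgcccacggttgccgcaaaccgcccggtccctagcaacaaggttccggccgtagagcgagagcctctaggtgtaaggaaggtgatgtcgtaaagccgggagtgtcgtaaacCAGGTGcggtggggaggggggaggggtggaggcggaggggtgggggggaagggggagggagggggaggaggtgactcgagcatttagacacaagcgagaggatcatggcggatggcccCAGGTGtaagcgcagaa
The ZEB1 start region held 3 matches, which begin at positions -242, -85 and 33 relative to the start. CDH2 and VIM, both sequences above, held 0 matches, and so did FN1 and ZEB2. Of 7 ZEB1 starts in RefSeq, 1 further start held 1 match, at position -57, and the other 5 held 0. A match of letters describes the sequence and shows no binding.

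The lines differed in which genes of this set they carried (the plot of levels in 12 libraries shows every value). SK-BR-3 had FN1 and SNAI1 and almost no read of the other 8 genes, while MCF-10A had all 10 at some level, led by CDH3, VIM and CDH1. Of the 10 genes 8 reached 1 FPKM in at least 3 libraries and were tested. ZEB1 and ZEB2 did not. Of the 8, CDH1, CDH2, CDH3, VIM, SNAI2 and TWIST1 passed this filter only through MCF-10A and SNAI1 only through SK-BR-3, so a difference between the lines was built into their passing. With FN1 they make 8 of 8 called between the solvent groups, against 72.1% of all 13194 tested genes (36.6% higher and 35.5% lower in SK-BR-3), and nothing is read from that count.

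**Figure D1:**
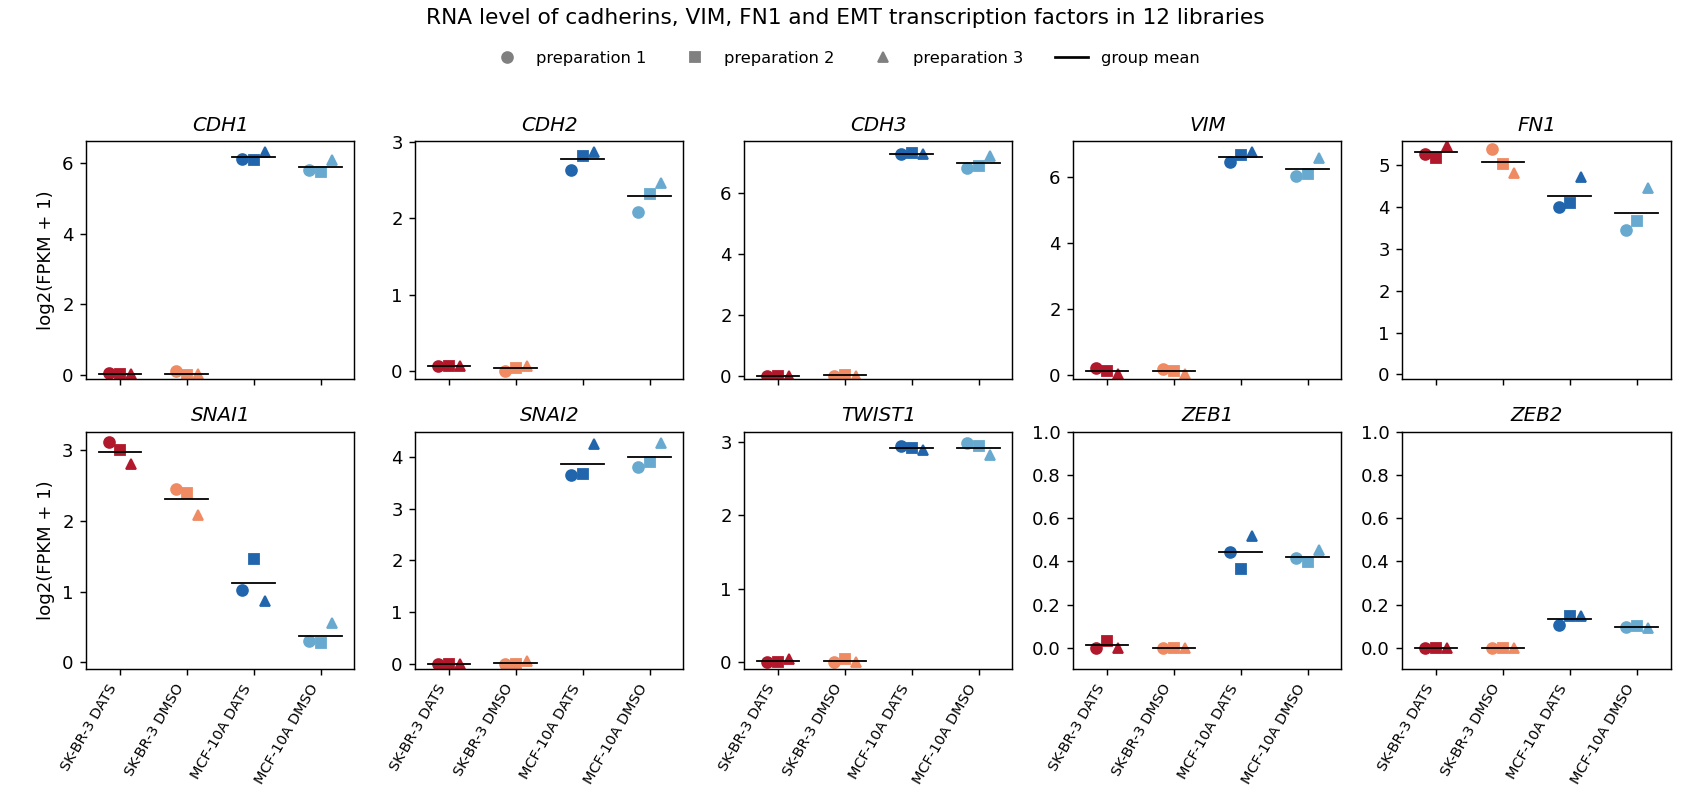
Level of each of the 10 genes as log2(FPKM + 1), with 1 panel per gene, 1 point per library (the shape gives the preparation number) and a line at the group mean; SK-BR-3 DATS and DMSO stand left of MCF-10A DATS and DMSO. Points for 8 genes lie near 0 in SK-BR-3, and only FN1 and SNAI1 lie higher in SK-BR-3 than in MCF-10A.

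CDH1 encodes E-cadherin, the main adhesion protein of epithelial junctions (ENSG00000039068, chromosome 16, 68737225 to 68835548, plus strand, GRCh38). It had 0 to 7 reads per library in SK-BR-3, 18 in all 6 libraries, and 5993 to 7920 reads per library in MCF-10A, 41909 in all. With DMSO the SK-BR-3 level was 0.000527 of the MCF-10A level (95% exact counting interval 0.000241 to 0.001, which covers counting error only). With DATS this ratio was 0.000423 (0.000193 to 0.000803).

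CDH3 encodes P-cadherin (ENSG00000062038, chromosome 16, 68636189 to 68722616, plus strand) and lies next to CDH1. A single read of it was found in the 6 SK-BR-3 libraries, in a DMSO library, against 92043 reads in the 6 MCF-10A libraries. With 0 reads in SK-BR-3 DATS, CDH3 was at least 1.57e+04-fold higher in MCF-10A DATS, with the floor set at 3 reads over the group. With DMSO the ratio of SK-BR-3 to MCF-10A was 2.69e-05 (6.81e-07 to 0.00015).

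CDH2 encodes N-cadherin (ENSG00000170558, chromosome 18, 27950966 to 28177446, minus strand), the classical cadherin of neurons and mesenchyme. It had 18 reads in the 6 SK-BR-3 libraries and 2530 in the 6 MCF-10A libraries. N-cadherin RNA did not take the place of E-cadherin RNA in either line: SK-BR-3 had few reads of both, and MCF-10A had 71.0 ± 5.83 FPKM of CDH1 beside 5.84 ± 0.557 FPKM of CDH2 with DATS, and 58.2 ± 7.16 beside 3.91 ± 0.638 FPKM with DMSO (SD, n = 3 libraries, as for all FPKM means here).

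Genes around CDH1 on chromosome 16 were set side by side, since CDH1 and CDH3 are neighbours. TANGO6, the gene after CDH1, averaged 0.661 ± 0.1 FPKM in SK-BR-3 DMSO and 3.62 ± 0.232 FPKM in MCF-10A DMSO (log2 difference -1.48 ± 0.09 SE, as for all log2 values). HAS3, which lies beyond TANGO6 and encodes a hyaluronan synthase, averaged 0.0716 ± 0.0124 FPKM in SK-BR-3 DMSO and 8.58 ± 5.55 FPKM in MCF-10A DMSO (-3.01 ± 0.28). Like CDH1 and CDH3, both passed the filter only through MCF-10A, so these differences are given with no test. Both differences were smaller than those of CDH1 (-5.84 ± 0.09) and CDH3 (-6.97 ± 0.09) on this scale, which is bounded by the MCF-10A level of each gene.

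ZFP90, CHTF8, UTP4 and SNTB2 passed the filter in both lines and were lower in SK-BR-3 DMSO, with differences of -1.15 ± 0.13, -0.86 ± 0.11, -0.51 ± 0.11 and -0.59 ± 0.13 (limma adjusted p = 6.32e-06, 2.48e-05, 0.00147 and 0.0015), where 35.5% of all tested genes were lower. VPS4A, the last of the stretch, had 8.66 ± 0.971 FPKM in SK-BR-3 and 9.83 ± 1.79 FPKM in MCF-10A (limma adjusted p = 0.26). SMPD3, the first, was under the filter, with 1.01 ± 0.421 FPKM in SK-BR-3 and 0.228 ± 0.0838 FPKM in MCF-10A. The gene models of HAS3 and CHTF8, of CHTF8 and UTP4, and of UTP4 and SNTB2 overlap, so reads could be shared within these pairs. The stretch was picked for its position, and copy number was not measured.

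**Figure D2:**
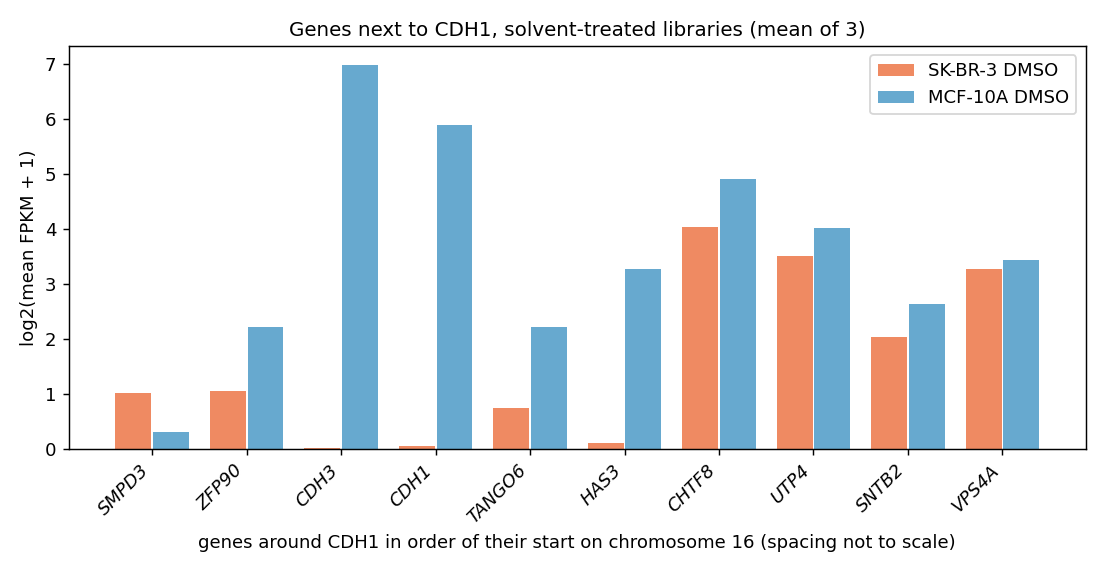
Bars give log2(mean FPKM + 1) of 10 genes in order of their start on chromosome 16 in SK-BR-3 DMSO (left bar of each pair) and MCF-10A DMSO (right bar), each a mean of 3 libraries. CDH3 and CDH1 are near 0 in SK-BR-3, while CHTF8, UTP4 and VPS4A are above 3 in both lines.

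VIM encodes vimentin, the intermediate filament protein of mesenchymal cells (ENSG00000026025, chromosome 10, 17228259 to 17237593, plus strand). It had 2 to 14 reads per library in SK-BR-3 and 5785 to 8943 in MCF-10A. The SK-BR-3 level was 0.000992 of the MCF-10A level with DATS (0.000635 to 0.00148) and 0.0012 of it with DMSO (0.000754 to 0.00182). Vimentin RNA was thus high in the line that had E-cadherin RNA and near 0 in the line without it. VIM shares 641 exon bases with the antisense gene VIM-AS1, which reached at most 0.973 FPKM, and the strand setting of the counting is not given in the sources used here.

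FN1 encodes fibronectin (ENSG00000115414, chromosome 2, 215360440 to 215436172, minus strand) and is the 1 gene of the set with more than 5 FPKM in every library of both lines. With DATS it had 37.5, 35 and 43.1 FPKM in SK-BR-3, against 14.9, 16.0 and 25.1 FPKM in MCF-10A. With DMSO it had 41.0, 31.4 and 27.0 FPKM in SK-BR-3, against 9.93, 11.7 and 20.9 FPKM in MCF-10A. Libraries of the lines did not overlap under either agent, and between the solvent groups FN1 was higher in SK-BR-3 by 1.22 ± 0.26 on the log2 scale (limma adjusted p = 0.00111).

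SNAI1 encodes Snail, a zinc finger repressor of CDH1 (ENSG00000124216, chromosome 20, 49982999 to 49988886, plus strand). Over 3 libraries it had 566 reads in SK-BR-3 DATS and 320 in SK-BR-3 DMSO, and 103 in MCF-10A DATS and 28 in MCF-10A DMSO. The ratio of SK-BR-3 to MCF-10A was 5.7 with DATS (4.61 to 7.1) and 13.3 with DMSO (9 to 20.3). Between the solvent groups the log2 difference was 1.94 ± 0.16, given with no test because SNAI1 passed the filter only through SK-BR-3.

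SNAI2 encodes Slug, the Snail relative found in basal breast cells (ENSG00000019549). It showed the reverse order of the lines, with 2 reads in the 6 SK-BR-3 libraries and 5145 in the 6 MCF-10A libraries. With 0 reads in SK-BR-3 DATS, SNAI2 was at least 751-fold higher in MCF-10A DATS (floor of 3 reads over the group). TWIST1, a bHLH factor of mesoderm (ENSG00000122691, chromosome 7, 19020991 to 19117672, minus strand), had 2 reads in SK-BR-3 and 1406 in MCF-10A.

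ZEB1 and ZEB2 encode homologous zinc finger repressors of CDH1 (ENSG00000148516, chromosome 10, 31318495 to 31529814, plus strand; ENSG00000169554, chromosome 2, 144364364 to 144524583, minus strand). ZEB1 had 3 reads in SK-BR-3, all in 1 DATS library, and 319 reads in MCF-10A, 43 to 62 per library. ZEB2 had 0 reads in SK-BR-3, which allows at most 0.00797 FPKM in a library (3 reads), and 219 reads in MCF-10A. ZEB1 was at least 46.5-fold higher in MCF-10A with DMSO, where SK-BR-3 had 0 reads. ZEB2 was at least 39.5-fold higher in MCF-10A with DATS and at least 27.6-fold higher with DMSO. Reads of ZEB1 and its antisense gene ZEB1-AS1, at most 0.682 FPKM, could also be shared.

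Per exon length, the order of the 10 genes in MCF-10A was CDH3, VIM and CDH1 at the top under both agents. With DATS the means were 155 ± 3.28, 96.5 ± 9.76 and 71.0 ± 5.83 FPKM, and the libraries of neighbours in this order did not overlap. With DMSO they were 125 ± 19.2, 74.6 ± 16.5 and 58.2 ± 7.16 FPKM, and VIM and CDH1 overlapped. FN1 and SNAI2 followed and overlapped under both agents, at 18.7 ± 5.62 and 13.7 ± 3.62 FPKM with DATS and 14.2 ± 5.89 and 15.0 ± 2.76 FPKM with DMSO.

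TWIST1 and CDH2 came next in MCF-10A, apart from each other in every library. Snail RNA stood below them at 1.2 ± 0.488 FPKM with DATS, apart from ZEB1 at 0.361 ± 0.0729 FPKM. With DMSO SNAI1 was at 0.303 ± 0.140 FPKM and overlapped ZEB1 at 0.340 ± 0.0268 FPKM. In SK-BR-3 the order was FN1, then SNAI1, with the other 8 genes averaging under 0.1 FPKM each.

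DATS was compared with DMSO in each line, the question of the study's design. In MCF-10A, SNAI1 and CDH2 rose, 2 of the 8 tested genes, against 6.28% of all tested genes (829 of 13194; 4.17% higher and 2.11% lower). Of all calls there 66.3% were higher, and 50.8% with quantile normalization. In SK-BR-3, SNAI1 rose, 1 of 8, against 18.1% of all tested genes (11.3% higher and 6.87% lower). Of all calls there 62.1% were higher, and 50.8% with edgeR. The median log2 change of the 8 genes was 0.35 in MCF-10A, beside 0.02 over all tested genes. No median is given for SK-BR-3, where 6 of the 8 had at most 24 reads in a group.

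SNAI1 had 1.03, 1.76 and 0.827 FPKM in the MCF-10A DATS libraries and 0.235, 0.210 and 0.465 FPKM in the MCF-10A DMSO libraries. These rest on 29, 51 and 23 reads with DATS and on 7, 7 and 14 reads with DMSO. The groups did not overlap, and the ratio of the means was 3.97 (log2 change 0.74 ± 0.16, limma adjusted p = 0.0235). Between same-numbered libraries, the inferred preparations, the ratio of DATS to DMSO was 4.38, 8.35 and 1.78.

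The pseudocount of 1 FPKM compresses a gene this low. On whole reads the SNAI1 change in MCF-10A was 2.0 ± 0.39 on the log2 scale with DESeq2 (adjusted p = 3.5e-05), and the authors' deposited table gives 1.96 (adjusted p = 0.00615). The limma call was lost without MCF-10A DMSO 1 (adjusted p = 0.109), DMSO 2 (0.101), DATS 1 (0.0583) or DATS 2 (0.0889), with no filter on low values (0.0639), and with MCF-10A fitted alone on the same 13194 genes (0.0819).

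In SK-BR-3, SNAI1 had 7.68, 7.05 and 6.02 FPKM with DATS, against 4.50, 4.24 and 3.26 FPKM with DMSO. All 3 DATS libraries were above all 3 DMSO libraries, and the ratio of the means was 1.73 (log2 change 0.67 ± 0.16, limma adjusted p = 0.0154). The ratios within preparations were 1.71, 1.66 and 1.85, closer together than in MCF-10A. The authors' deposited table gives 0.76 for this change (adjusted p = 0.00972). The call was lost without SK-BR-3 DATS 1 (limma adjusted p = 0.0521) or DMSO 3 (0.0633), with edgeR (0.0663) and with a pseudocount of 0.1 FPKM (0.0762). The ribosomal RNA share was 0.427%, 0.557% and 0.454% in SK-BR-3 DATS and 0.344%, 0.346% and 0.41% in SK-BR-3 DMSO, and its part was not tested.

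Snail thus rose with DATS in both lines, which started 13.2-fold apart in mean FPKM. The difference of the responses, SK-BR-3 minus MCF-10A, depended on the scale. It was -0.07 ± 0.22 on log2(FPKM + 1) (limma adjusted p = 0.887), -0.90 ± 0.39 with a pseudocount of 0.1 FPKM (limma adjusted p = 0.235), -1.26 with edgeR (adjusted p = 0.144) and -1.23 ± 0.47 with DESeq2 (adjusted p = 0.0832). None passed the threshold, and this does not show that the lines responded alike.

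**Figure D3:**
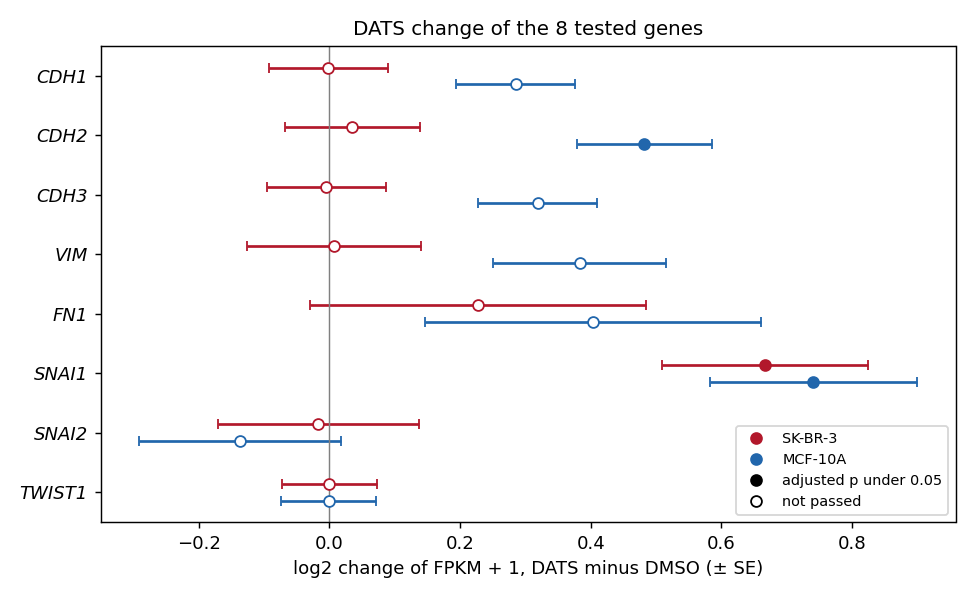
Log2 change of FPKM + 1, DATS minus DMSO, of the 8 tested genes (points, with bars for ± 1 SE from limma), SK-BR-3 above MCF-10A for each gene; filled points have a limma adjusted p under 0.05. Filled points are SNAI1 in both lines (0.67 and 0.74) and CDH2 in MCF-10A (0.48).

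Of the 3 classical cadherins of the set, CDH2 was the 1 with a called change. In MCF-10A it had 5.21, 6.03 and 6.28 FPKM with DATS, against 3.24, 3.99 and 4.51 FPKM with DMSO. The groups did not overlap, and the ratio of the means was 1.49 (log2 change 0.48 ± 0.10, limma adjusted p = 0.0237). The ratios within preparations were 1.61, 1.51 and 1.39, so N-cadherin RNA was higher with DATS in 3 of 3 same-numbered pairs. The authors' deposited table gives a log2 change of 0.54 (adjusted p = 0.0117).

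The CDH2 call was lost without MCF-10A DMSO 1 (limma adjusted p = 0.112), DMSO 2 (0.0869), DATS 2 (0.0992) or DATS 3 (0.0759). It was also lost with edgeR (0.0726), with a pseudocount of 0.1 FPKM (0.114), with no filter (0.0569) and with MCF-10A fitted alone (0.0561, and 0.095 on the same 13194 genes). The difference of the CDH2 responses was -0.45 ± 0.15 (limma adjusted p = 0.109, and 0.0391 with the replicate block), and its sign turned with whole reads, to 0.30 with edgeR and 0.37 with DESeq2, where SK-BR-3 had 12 reads with DATS and 6 with DMSO.

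E-cadherin and P-cadherin RNA in MCF-10A also had DATS libraries that lay above all DMSO libraries, without a call in the unpaired fit. CDH1 had 68.0, 67.3 and 77.7 FPKM with DATS, against 55.0, 53.2 and 66.4 FPKM with DMSO. CDH3 had 152, 159 and 155 FPKM with DATS, against 111, 118 and 147 FPKM with DMSO. The log2 changes were 0.29 ± 0.09 for CDH1 (limma adjusted p = 0.0849, and 0.0197 with the replicate block) and 0.32 ± 0.09 for CDH3 (0.061, and 0.0401 with the block).

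VIM had 85.9, 98.6 and 105 FPKM in MCF-10A DATS and 63.6, 66.7 and 93.6 FPKM in MCF-10A DMSO. The groups overlapped through DMSO library 3, which was above DATS library 1. The log2 change was 0.38 ± 0.13 (limma adjusted p = 0.108, and 0.0228 with the replicate block). Same-numbered libraries were taken as pairs because they deviated together over all genes, and the block raised the calls among the 8 genes in MCF-10A to 5, all higher, beside 15.9% of all tested genes (10.7% higher).

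Of the 8 tested genes, the DATS libraries did not overlap the DMSO libraries in MCF-10A for CDH1, CDH2, CDH3 and SNAI1, all higher, beside 17.3% of all tested genes with all 3 DATS libraries higher. In SK-BR-3 this held for SNAI1, beside 21.1%. The cadherins and vimentin could not be followed in SK-BR-3, where CDH1 had 9 reads with DATS and 9 with DMSO, CDH3 had 0 and 1, and VIM 24 and 22. No difference was detectable at this depth.

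FN1 in MCF-10A was higher with DATS within each preparation, by a ratio of 1.5, 1.37 and 1.2, but preparation 3 stood above the others under both agents and the groups overlapped. Its log2 change was 0.40 ± 0.26 (limma adjusted p = 0.377, and 0.0871 with the replicate block). In SK-BR-3 the ratios were 0.916, 1.11 and 1.59, and the change was 0.23 ± 0.26 (limma adjusted p = 0.597). The sign of the FN1 change thus differed among the SK-BR-3 preparations.

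**Figure D4:**
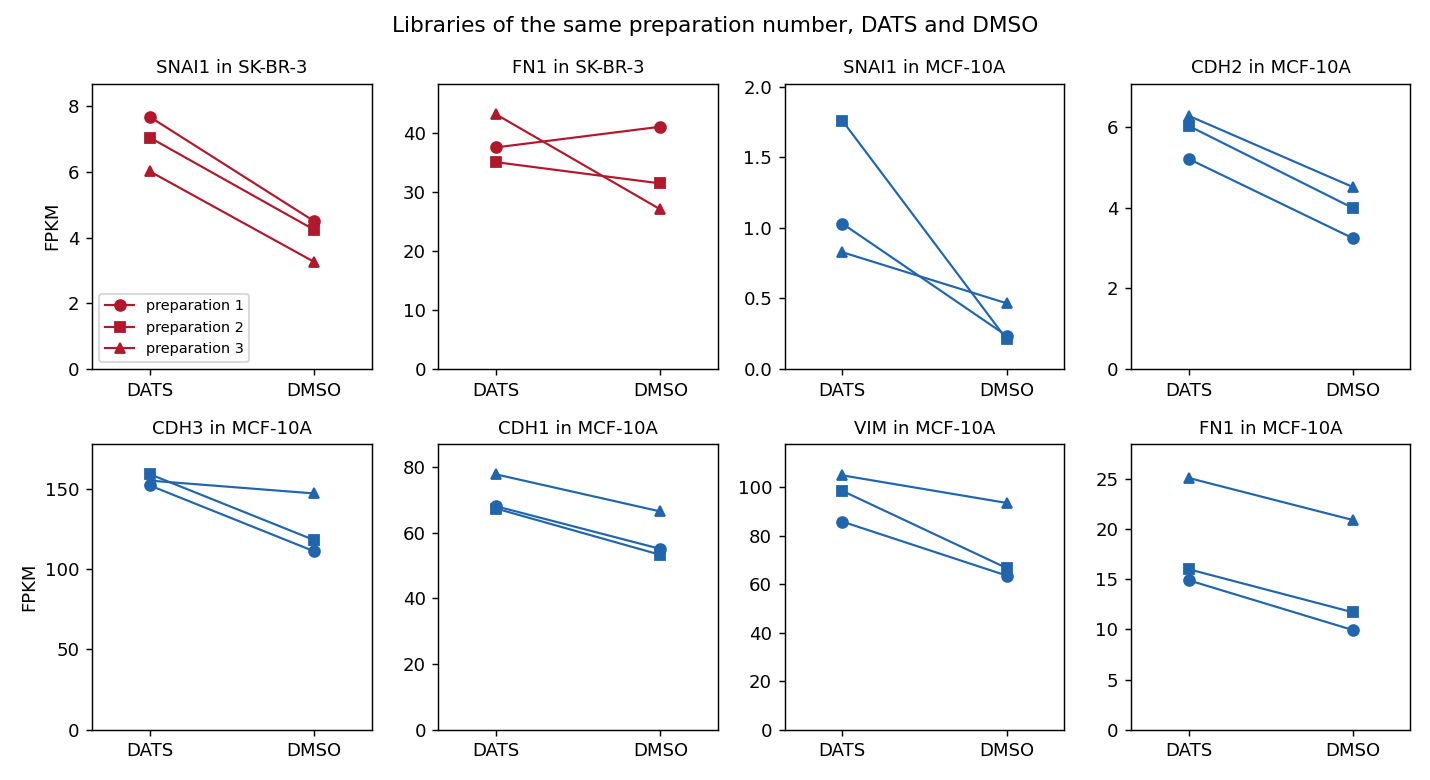
FPKM of libraries with the same preparation number, DATS left and DMSO right, joined by a line, for SNAI1 and FN1 in SK-BR-3 and SNAI1, CDH2, CDH3, CDH1, VIM and FN1 in MCF-10A; each axis starts at 0. Every MCF-10A DATS point lies above its DMSO partner, and FN1 in SK-BR-3 has lines of both slopes, with ratios of 0.916, 1.11 and 1.59.

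SNAI2 had 11.6, 11.7 and 17.9 FPKM in MCF-10A DATS and 13, 13.9 and 18.2 FPKM in MCF-10A DMSO. The groups overlapped, and the log2 change was -0.14 ± 0.15 (limma adjusted p = 0.648). TWIST1 was the most even gene of the set, with 6.66, 6.57 and 6.38 FPKM in MCF-10A DATS and 6.92, 6.67 and 6.06 FPKM in MCF-10A DMSO (ratio of means 0.998).

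ZEB1 had 0.360, 0.289 and 0.434 FPKM in MCF-10A DATS and 0.334, 0.316 and 0.369 FPKM in MCF-10A DMSO, which overlapped. ZEB2 had 0.0765, 0.109 and 0.106 FPKM with DATS, above the 0.0701, 0.0707 and 0.0670 FPKM with DMSO, from 30 to 47 reads per library. With no filter the ZEB2 change was 0.04 ± 0.02 on the log2 scale (limma adjusted p = 0.342). Of the repressors of CDH1, SNAI1 was thus the 1 with a called change.

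Preparation 3 of MCF-10A carried smaller changes. The log2 change of CDH3 was 0.45 and 0.43 in preparations 1 and 2 and 0.08 in preparation 3, and that of VIM was 0.43, 0.56 and 0.16. The share of ribosomal RNA was 0.365%, 0.386% and 0.261% in the MCF-10A DATS libraries and 0.249%, 0.243% and 0.257% in the MCF-10A DMSO libraries. It was higher with DATS by a wider margin in preparations 1 and 2 than in preparation 3, and its part in these results was not tested. Without both libraries of preparation 3, a choice made after seeing the data, CDH1, CDH2, CDH3, VIM and SNAI1 were all called in MCF-10A (limma adjusted p = 0.0344, 0.0197, 0.00777, 0.0194 and 0.0121). That fit called 1211 of 13001 tested genes in MCF-10A (842 higher), beside 829 of 13194 with all libraries.

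The difference of the responses was called for 0 of the 8 tested genes with limma, beside 4.29% of all tested genes. At an unadjusted limma p under 0.05 it was 3 genes (CDH1, CDH2 and CDH3), beside 2781 of all 13194 tested genes. With edgeR and DESeq2 it was 0 members, beside 464 and 1094 of all tested genes. With the replicate block it was 1 gene, CDH2, beside 9.82% of all tested genes (4.53% lower). Without MCF-10A DMSO 3 it was 3 genes, beside 1036 of 13116 tested genes (519 lower). The 3 were CDH3 at -0.44 ± 0.09 (limma adjusted p = 0.0158), VIM at -0.55 ± 0.13 (0.0341) and CDH2 at -0.53 ± 0.14 (0.042). For CDH1, CDH2, CDH3 and VIM the SK-BR-3 side of this difference is a gene near 0 reads. These genes passed the filter only through MCF-10A, so their difference is nearly the MCF-10A change alone.

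Genes whose levels followed a member most closely were found after each line's mean was taken off, over 12 libraries that also share depth and preparation. CDH3 was most like HAS3, a gene of the same stretch of chromosome 16 (Pearson r = 0.993), and VIM most like the integrin gene ITGB2 (0.990). CDH2 was most like WNT7A, a Wnt ligand gene (0.981), and CDH1 most like ADAMTS1, a secreted protease gene (0.974). For these 4 members SK-BR-3 has almost no spread, so the likeness describes the 6 MCF-10A libraries.

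SNAI1 was most like ISG20, an interferon-induced exonuclease gene (r = 0.960), and FN1 most like CCND1, which encodes cyclin D1 (0.949). SNAI2 was most like ADAMTS15 (0.951) and TWIST1 most like TMEM42 (0.929). SNAI2 and TWIST1 had 2 reads each in the 6 SK-BR-3 libraries, so their likeness also describes the MCF-10A libraries alone. All are descriptions of these libraries, with no test.

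Cadherins work through catenins and beside tight junction and desmosome proteins, and these genes were counted in lists. Over all tested genes the limma calls were 11.3% higher and 6.87% lower in SK-BR-3 (median log2 change 0.03), and 4.17% higher and 2.11% lower in MCF-10A (median 0.02). With the replicate block 17.1% were higher in SK-BR-3 and 10.7% in MCF-10A. In either direction edgeR called 17.1% in SK-BR-3 and 5.96% in MCF-10A, and DESeq2 22% and 11%.

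Of 22 tested epithelial junction genes 8 rose and 0 fell in SK-BR-3 (median log2 change 0.29). In MCF-10A 2 rose and 1 fell (median 0.22), with 4 higher and 1 lower with the replicate block, 4 called with edgeR and 5 with DESeq2. In SK-BR-3 the desmosomal cadherin gene DSG2 rose to 36.2 ± 4.77 FPKM with DATS, against 21.1 ± 3.12 FPKM with DMSO (0.75 ± 0.12, limma adjusted p = 0.00256). EPCAM, a surface protein of epithelial cells, rose to 175 ± 1.2 FPKM, against 112 ± 17.2 FPKM (0.65 ± 0.15, limma adjusted p = 0.0133), and the plakophilin gene PKP2 rose as well (0.57 ± 0.09, 0.00318). These 3 calls held whichever library was left out. The tight junction gene CLDN1 rose in SK-BR-3 (0.89 ± 0.25, 0.03), a call lost without SK-BR-3 DATS 1 or 3 or DMSO 2 or 3.

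In MCF-10A the claudin genes CLDN4 (1.73 ± 0.39, limma adjusted p = 0.0281) and CLDN1 (1.38 ± 0.25, 0.0132) rose. The desmosomal cadherin gene DSC3 fell to 30.6 ± 0.814 FPKM with DATS, against 40.6 ± 5.42 FPKM with DMSO (-0.39 ± 0.09, 0.0305). OCLN, which encodes occludin, had a change of 0.47 ± 0.14 (0.0634, and 0.00899 with the replicate block). Leaving out MCF-10A DMSO 1, DMSO 2, DATS 1 or DATS 2 ended the calls of CLDN4, CLDN1 and DSC3, and leaving out DATS 3 ended those of CLDN4 and DSC3.

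Of 14 catenins and cadherin partners 4 rose in SK-BR-3 (median 0.15), with 6 higher with the replicate block, 1 called with edgeR and 5 with DESeq2. In MCF-10A limma called 0 of 14 (median 0.20), with 0 called with edgeR, 2 with DESeq2 and 4 with the replicate block. At an unadjusted limma p under 0.05 there were 6 of 14, beside 3119 of all 13194 tested genes. CTNNAL1, which encodes an alpha-catenin relative, rose in SK-BR-3 to 13.7 ± 2.57 FPKM with DATS, against 5.60 ± 0.475 FPKM with DMSO (1.15 ± 0.12, limma adjusted p = 0.000348). VCL, which encodes the actin linker vinculin, rose as well (0.38 ± 0.11, 0.0424), a call lost without any of 7 libraries: SK-BR-3 DATS 1 or 3, SK-BR-3 DMSO 2 or 3, MCF-10A DATS 2, or MCF-10A DMSO 1 or 2. CBLL1, which encodes an E-cadherin ubiquitin ligase, rose (0.33 ± 0.08, 0.0172), lost without SK-BR-3 DATS 1 or 3 or DMSO 2 or 3. The catenin genes that bind E-cadherin directly were present in the line without CDH1: CTNNB1 (beta-catenin) averaged 16.3 ± 0.677 FPKM in SK-BR-3 DATS and 14.3 ± 0.737 FPKM in SK-BR-3 DMSO, and CTNND1 (p120) 44.7 ± 6.84 FPKM in SK-BR-3 DATS and 40.5 ± 3.29 FPKM in SK-BR-3 DMSO.

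JUP, which encodes plakoglobin, was the highest of the catenin genes named here, at 516 ± 114 FPKM in SK-BR-3 DATS and 373 ± 27.3 FPKM in SK-BR-3 DMSO (0.45 ± 0.15, limma adjusted p = 0.0652, and 0.0123 with the replicate block). In MCF-10A it averaged 190 ± 16.9 FPKM with DATS and 148 ± 22 FPKM with DMSO (0.36 ± 0.15, 0.177, and 0.0382 with the block).

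**Figure D5:**
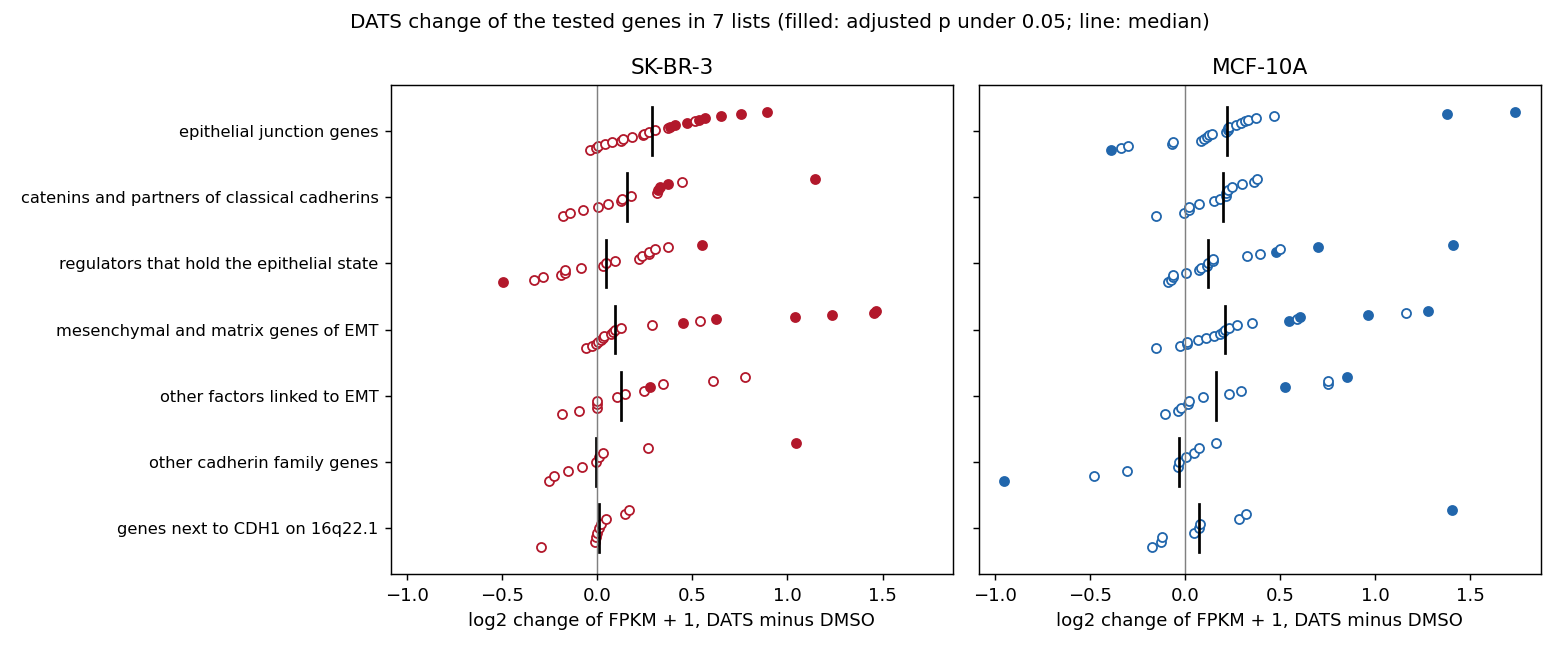
Log2 change of FPKM + 1, DATS minus DMSO, of the tested genes of 7 lists in SK-BR-3 (left panel) and MCF-10A (right panel); each point is a gene, filled where the limma adjusted p is under 0.05, and a vertical line gives the list's median. Epithelial junction genes have 8 filled points in SK-BR-3, all above 0, and 3 in MCF-10A, 1 of them below 0.

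Mesenchymal and matrix genes other than VIM and FN1 had 6 of 19 tested genes higher and 0 lower in SK-BR-3 (median 0.10), and 4 higher and 0 lower in MCF-10A (median 0.21). Over all tested genes 11.3% were higher in SK-BR-3 and 4.17% in MCF-10A. In MCF-10A the count was 7 with the replicate block. In SK-BR-3 LOXL2, a collagen cross-linking enzyme, rose to 12.4 ± 0.162 FPKM with DATS, against 3.86 ± 0.446 FPKM with DMSO (1.46 ± 0.14, limma adjusted p = 0.000197). CD44, the hyaluronan receptor, rose there to 3.87 ± 0.566 FPKM, against 1.08 ± 0.330 FPKM (1.24 ± 0.12, 0.000215), and the fibronectin receptor subunit ITGA5 to 4.51 ± 0.278 FPKM, against 1.69 ± 0.144 FPKM (1.04 ± 0.11, 0.000411).

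In MCF-10A TAGLN, which encodes the actin-binding protein transgelin, rose (1.28 ± 0.24, limma adjusted p = 0.0148), as did the matrix gene TNC (0.96 ± 0.16, 0.0112) and ITGA5 (0.61 ± 0.11, 0.014). The 3 calls were lost without MCF-10A DMSO 1, DMSO 2 or DATS 2, and that of TAGLN also without DATS 1. Of 12 tested further EMT factors 1 rose in SK-BR-3 (median 0.13) and 2 in MCF-10A (median 0.16). In SK-BR-3 the count was 4 with the replicate block, 3 with edgeR and 4 with DESeq2, and in MCF-10A it was 4 with the block. With limma these were ETS1 in both lines (0.28 ± 0.09, 0.0449 in SK-BR-3 and 0.52 ± 0.09, 0.00929 in MCF-10A) and SOX4 in MCF-10A (0.85 ± 0.22, 0.0462).

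The ETS1 call in MCF-10A was lost without MCF-10A DATS 2 or DMSO 1. In SK-BR-3, at 0.563 ± 0.0540 FPKM with DATS and 0.290 ± 0.0410 FPKM with DMSO, it was lost without any of 9 libraries, the 6 of SK-BR-3 and MCF-10A DATS 1, DATS 2 and DMSO 2. The SOX4 call was lost without any of 7, MCF-10A DATS 1, 2 or 3, MCF-10A DMSO 1 or 2 and SK-BR-3 DMSO 2 or 3.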

How the data were processed

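RNA was sequenced in 12 libraries, grouped by the line and treatment in their labels. STAR 2.6.1d, DESeq2 and the build GRCh38 are named per the submitters' processing notes. How reads were counted, with or without strand, and against which annotation, is among the steps not given in the sources used here. Deposited by the authors are FPKM values of all genes and, for some genes, the lengths they were divided by. In a second pair of tables the authors deposited read counts, log2 fold changes and p-values for the genes that had an unadjusted p under 0.05 in a line. Whole reads were recovered from FPKM, the GENCODE 29 exon length and an effective size per library, and 704820 of 704820 values came out whole within 1e-06 read.

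The 13194 genes that reached 1 FPKM in 3 or more libraries were fitted by limma 3.58.1 (R 4.3.3) on log2(FPKM + 1), using 4 group means over 12 libraries, with empirical Bayes variances that follow a trend in level. Log2 changes and their standard errors refer to that scale and are compressed for genes with low FPKM. Calls are at a Benjamini-Hochberg adjusted p under 0.05 over all tested genes, and the text writes "rose" or "fell" for those alone. With 3 libraries a group, p-values measure the spread between preparations, pooled over both lines. For CDH1, CDH2, CDH3, VIM, SNAI2 and TWIST1 the SK-BR-3 libraries lie near 0 and add almost no spread on this scale. The pooled standard errors and p-values of these genes in MCF-10A, with the CDH2 call, can therefore be too small. On simulated reads for 12928 genes, the MCF-10A comparison recovered 27 of 50 genes at a fold of 1.5, 50 of 50 at a fold of 2, 50 of 50 at a fold of 3 and 48 of 50 at a fold of 0.5, with 12 unchanged genes called. The changed genes were drawn from those with at least 50 expected reads in MCF-10A, with 1 fixed dispersion and no preparation effect. The recovery therefore does not carry over to genes with fewer reads, such as SNAI1 in MCF-10A, or to the spread of the real libraries.

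Replicate numbers were taken as pairing DATS and DMSO libraries because same-numbered libraries deviated together (correlations 0.21, 0.19 and 0.33 in MCF-10A, 0.39, 0.24 and 0.25 in SK-BR-3). Different-numbered libraries had correlations of -0.24 to 0.11 in MCF-10A and -0.3 to 0.09 in SK-BR-3. In MCF-10A, numbers 1 and 2 were set apart least, with 0.11 for DATS 1 and DMSO 2 and 0.08 for DATS 2 and DMSO 1. The replicate block was fitted within each line as an alternative. Others were edgeR 4.0.16 and DESeq2 1.42.0 on the recovered reads, a pseudocount of 0.1 FPKM, no filter, a filter at 5 FPKM, quantile normalization, each line alone, and each library left out in turn.

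The members and lists were chosen with earlier results of these data known. Genes named are the 10 members and genes drawn from up to 4 tested genes per list and line with the largest absolute change. Many of the latter without a call are left out, so the list genes named lean to called ones. For likeness the first of the 3 tested protein-coding genes with the highest r is named, for members averaging at least 5 FPKM in a group. Genes named outside this rule (CTNNB1, CTNND1 in SK-BR-3, CSF1R, PTPRC, CD14, COL1A1, VWF, PECAM1, TANGO6, CHTF8, SMPD3) describe a level. TANGO6 and CHTF8 also describe a difference between the lines. Normalized signal columns were not used. A gene that the rule for named genes takes is not reported here.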

Additional observations from a re-analysis of the deposited data

Results flagged for a closer look

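None of the 8 tested members passed the test of the difference between the lines' DATS responses, and groups of 3 libraries are too small for a test of single outlying samples. Over all tested genes 4.29% passed it. The list genes given here were named for a large change in a line, so how many of them passed is not read as a result. The difference of the log2 changes, SK-BR-3 minus MCF-10A, was 1.25 for LOXL2 (limma adjusted p = 0.00918), 1.15 for CTNNAL1 (0.00751), 1.05 for CD44 (0.0108), 1.00 for CDH5 (0.0276), 0.86 for DSC3 (0.00734) and 0.64 for CDS1 (0.011). It was -1.57 for ELF3 (0.0115), -0.98 for FOXA1 (0.0206) and -0.93 for TNC (0.047). CDH5 was at 0.0325 ± 0.020 FPKM in MCF-10A DATS and 0 FPKM in MCF-10A DMSO and passed the filter only through SK-BR-3, so its difference is nearly the SK-BR-3 change alone. DSC3, at 0.544 ± 0.0793 FPKM in SK-BR-3 DATS and 0.113 ± 0.0093 FPKM in SK-BR-3 DMSO, and TNC, at 0.0579 ± 0.0464 FPKM in SK-BR-3 DATS and 0.035 ± 0.0138 FPKM in SK-BR-3 DMSO, were low in 1 line, and FOXA1 and ELF3 were low in MCF-10A (6.95 ± 0.599 and 9.11 ± 2.61 FPKM with DATS, 3.94 ± 0.935 and 2.77 ± 0.706 FPKM with DMSO).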

How the results depend on the processing

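Members and lists were followed under 10 alternatives besides leave-one-out fits. The alternatives without both libraries of MCF-10A replicate 3, and each line alone with the genes of the 12-library filter, were chosen after seeing the data. No member call of the main fit changed sign. The CDH2 difference of responses, called with the replicate block alone among the fits of all libraries, turned sign with edgeR and DESeq2. Between the solvent groups the count of all genes called was 6171 with the 5 FPKM filter, beside 9515.

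Genes called with DATS in MCF-10A (829) became 1456 with DESeq2, 418 with no filter, 1249 with quantile normalization and 0 when the line was fitted alone with the genes of the 12-library filter (3285 at an unadjusted p under 0.05), and 75 to 1937 with 1 library left out (each of the 6 MCF-10A libraries moved the count by over 1.5 times). In SK-BR-3 (2391) they became 1195 with the line alone, 917 with the line alone and the 12-library filter, and 1226 to 2666 with 1 library left out (by over 1.5 times for SK-BR-3 DATS 3, DMSO 2 and DMSO 3). For the difference (566) they were 1094 with DESeq2, 250 with no filter and 124 to 1036 with 1 library left out (by over 1.5 times for these 3 libraries and for each MCF-10A library but DATS 3). Quantile normalization gave 50.8% of MCF-10A calls as higher, beside 66.3%, and edgeR 50.8% of SK-BR-3 calls, beside 62.1%. The cause of these shifts was not tested.

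Members called in MCF-10A (2) were 3 with the filter at 5 FPKM, 1 with edgeR, 1 with a pseudocount of 0.1 FPKM and 0 with no filter. They were 0 with the line alone (either gene set), 5 without replicate 3, and 0 to 5 with 1 library left out. With the line alone and its own filter SNAI1 was not tested. In SK-BR-3 (1) they were 0 with edgeR and 0 with a pseudocount of 0.1 FPKM, and 0 to 1 with 1 library left out. For the difference (0) they were 1 without replicate 3, and 0 to 3 with 1 library left out. Without MCF-10A replicate 3, 1211 of 13001 tested genes were called in MCF-10A and 814 for the difference.

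With the replicate block, calls over all genes were 2100 in MCF-10A, 3621 in SK-BR-3 and 1296 for the difference, and members called were 5 in MCF-10A and 1 for the difference, and the block changed no other member's call. No paired analysis was possible because the block lies within each line for the comparison of SK-BR-3 DMSO with MCF-10A DMSO. Depth limits SNAI1 in MCF-10A (7 to 51 reads per library) and every member but FN1 and SNAI1 in SK-BR-3.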

Other observations

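Of 9 tested further cadherin family genes 1 was called in each line, beside 18.1% of all tested genes in SK-BR-3 and 6.28% in MCF-10A. In SK-BR-3 edgeR called 2, and in MCF-10A DESeq2 called 3 and the replicate block 2. CDH5, which encodes the endothelial VE-cadherin, rose in SK-BR-3 to 25.3 ± 4.42 FPKM with DATS, against 11.8 ± 2.88 FPKM with DMSO (1.04 ± 0.15, limma adjusted p = 0.00139), and stood at 0.0325 ± 0.020 FPKM in MCF-10A DATS and 0 in MCF-10A DMSO. SK-BR-3 thus had more VE-cadherin RNA per exon length than of any classical cadherin in the set. The other endothelial markers were near 0 in SK-BR-3: VWF averaged 0.0575 ± 0.0227 FPKM with DATS and 0.0626 ± 0.0186 FPKM with DMSO, and PECAM1 0.00791 ± 0.00798 FPKM with DATS and 0.00572 ± 0.00991 FPKM with DMSO. FAT2, an atypical cadherin gene, fell in MCF-10A to 8.54 ± 0.649 FPKM with DATS, against 18.7 ± 8.04 FPKM with DMSO (-0.95 ± 0.25, limma adjusted p = 0.0477), a call lost without any of 11 libraries (all but MCF-10A DMSO 3).

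Of 17 tested regulators that hold the epithelial state, 1 rose and 1 fell in SK-BR-3 (median 0.05) and 3 rose in MCF-10A (median 0.12). Over all tested genes 11.3% were higher and 6.87% lower in SK-BR-3, and 4.17% were higher in MCF-10A. With the replicate block 3 were higher and 1 lower in SK-BR-3. In SK-BR-3 the lipid enzyme gene CDS1 rose to 29.8 ± 2.17 FPKM with DATS, against 20.0 ± 1.07 FPKM with DMSO (0.55 ± 0.08, limma adjusted p = 0.00116). ESRP2, an epithelial splicing regulator, fell to 20.5 ± 0.746 FPKM, against 29.3 ± 2.95 FPKM (-0.49 ± 0.09, 0.00419). In MCF-10A the ETS factor ELF3 rose to 9.11 ± 2.61 FPKM with DATS, against 2.77 ± 0.706 FPKM with DMSO (1.41 ± 0.19, 0.00409). The luminal factor FOXA1 (0.70 ± 0.13, 0.0148) and the trafficking gene RAB25 (0.48 ± 0.10, 0.0226) rose there too, calls lost without MCF-10A DMSO 1, DMSO 2, DATS 1 or DATS 2, and for RAB25 also without DATS 3. HAS3, of the stretch around CDH1 on chromosome 16, rose in MCF-10A (1.41 ± 0.28, 0.0191), lost without those same 4 libraries.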
